A study of Mus musculus with 25 samples.

Results

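The solute carriers are a large group of membrane transporters, proteins that move amino acids, ions, metals, vitamins, nucleosides and metabolic intermediates across the plasma membrane, the vesicle membrane or the inner mitochondrial membrane. Their numbered families share sequence and, in most cases, the kind of substrate they carry. Members of one family are often divided among organs, so that the neuron, the hepatocyte, the adipocyte and the muscle fibre each carry a different relative. The carriers described here were taken by symbol: every array probe matched to 1 gene whose symbol starts with Slc and a number, without the glucose transporters of the Slc2a family and without the Slco family. This gave 287 probes for 280 genes, of 13832 genes named through a probe with 1 gene. Among the 280 genes, 4 carry the prefix but are not carriers (Slc9a3r1, Slc9a3r2, Slc4a1ap and Slc7a6os), and they were kept because the rule goes by symbol.

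Total RNA came from gastrocnemius muscle, liver, brain and the white fat beside the gonads (gonadal white adipose tissue, called fat here) of 2 mouse strains. The first is C57BL/6J, called B6 here, which is the background strain. The other is B6.C-D7Mit353, a congenic strain on that background, which the labels call lean and homozygous and whose name carries a marker of chromosome 7. The 8 tissue and strain groups held 3 arrays each, described as biological triplicates, with no treatment given; the labels give neither age nor sex. Tissue pieces were bulk samples, so fewer cells of a type and less RNA per cell cannot be told apart. Numbers in the liver, fat and muscle titles recur across tissues, and 1 further congenic brain array, replicate 2, lies outside the named triplicates and was used in alternatives only.

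A probe was called detected on an array where its deposited signal to noise ratio was at least 3, which held for 39.7% to 55.3% of the 32996 probes of an array. The measured marker genes of neurons, hepatocytes, adipocytes and skeletal muscle were high in the tissue each defines, except the neuron marker Snap25, which was detected on 0 of the 6 brain arrays. Of the hepatocyte markers, Ttr was high in brain as well. Several arrays also stood apart for other cell types. In fat, the mean of 5 epididymis markers, on the normalized log2 scale, was 19.4, 17.8 and 19.4 on the 3 B6 arrays but 10.9, 19.3 and 16 on congenic replicates 1, 2 and 3. Congenic fat replicates 1 and 3 were high instead for 3 seminal vesicle markers, at 18.9 and 15.4 against 8.5 to 11 on the other 4 fat arrays. The mean of 3 testis markers was 13.9, 12.1 and 12.6 on the B6 fat arrays and 9.1, 13.7 and 15.4 on congenic replicates 1, 2 and 3. In liver, the mean of 4 pancreas markers was 18.6 on congenic replicate 2 and 13.5 on congenic replicate 3, against 8.8 to 11.8 on the other 4. The same 2 congenic livers averaged 10.8 and 11.9 for 3 bile duct markers, against 8.3 to 9.1 on the other 4. In muscle, the pancreas markers averaged 13 on B6 replicate 1, against 7.8 to 8.2 on the other muscle arrays. In brain, 2 granulocyte markers averaged 10.7, 14.1 and 14.1 in B6 and 9.1 to 10.5 in the congenic strain.

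Of the 280 carriers, 57 were detected on all 24 arrays and 18 on none. Detection on all 6 arrays of a tissue held for 130 carriers in brain, 121 in fat, 112 in liver and 78 in muscle. In percent these are 46.4, 43.2, 40 and 27.9, against 39.8, 38.5, 31.3 and 29.8 of all probes. Among the 13832 genes named through 1 probe each, which match the carriers in how they were annotated, the shares were 52.7, 52.5, 43.7 and 42.3, so the carriers were detected less often than named genes in every tissue. The shares detected on all 24 arrays and on none were 20.4% and 6.43% of the carriers, 32.2% and 4.81% of named genes, and 22.3% and 9.02% of all probes. The 18 carriers detected nowhere include the kidney cotransporters Slc12a1 and Slc12a3, the intestinal peptide transporter Slc15a1 and the thyroid iodide transporter Slc5a5. Detection of Slc35a2 and Slc66a1 carries a further limit, since the deposited flag, whose meaning is not given in the sources used here, was 0 for them on all 24 arrays.

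For the comparison of tissues, all 24 arrays were put on 1 normalized log2 scale and 203 carriers were tested with limma. A carrier was called highest in a tissue when its mean there exceeded that in each of the other tissues by at least 1 log2 unit, each with a Benjamini-Hochberg adjusted p under 0.05. By this rule 103 of 203 carriers (50.7%) had a tissue of highest signal, against 38.6% of all probes tested and 39.3% of named genes tested. Liver led with 45 carriers (22.2%, against 9.03% of all probes and 9.84% of named genes). Brain had 27 (13.3%, against 15.6% and 14%), fat 21 (10.3%, against 6.91% and 7.95%) and muscle 10 (4.93%, against 7.09% and 7.48%). The share in brain was thus close to that of either background, whereas the share in liver was the one farthest above it. The remaining 100 carriers had no tissue that met the rule. The rule applied within each strain alone called 96 carriers in B6 and 90 in the congenic strain. In B6 the shares for brain, liver, fat and muscle were 11.8%, 22.7%, 8.87% and 3.94%, against 14%, 8.06%, 5.68% and 6.61% of all probes. In the congenic strain they were 12.8%, 20.7%, 6.9% and 3.94%, against 14%, 8.07%, 4.81% and 6.51%. The same call in both strains was given to 80 carriers, and 0 were called for different tissues. How many of all probes had the same call in both was not counted.

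**Figure D1:**
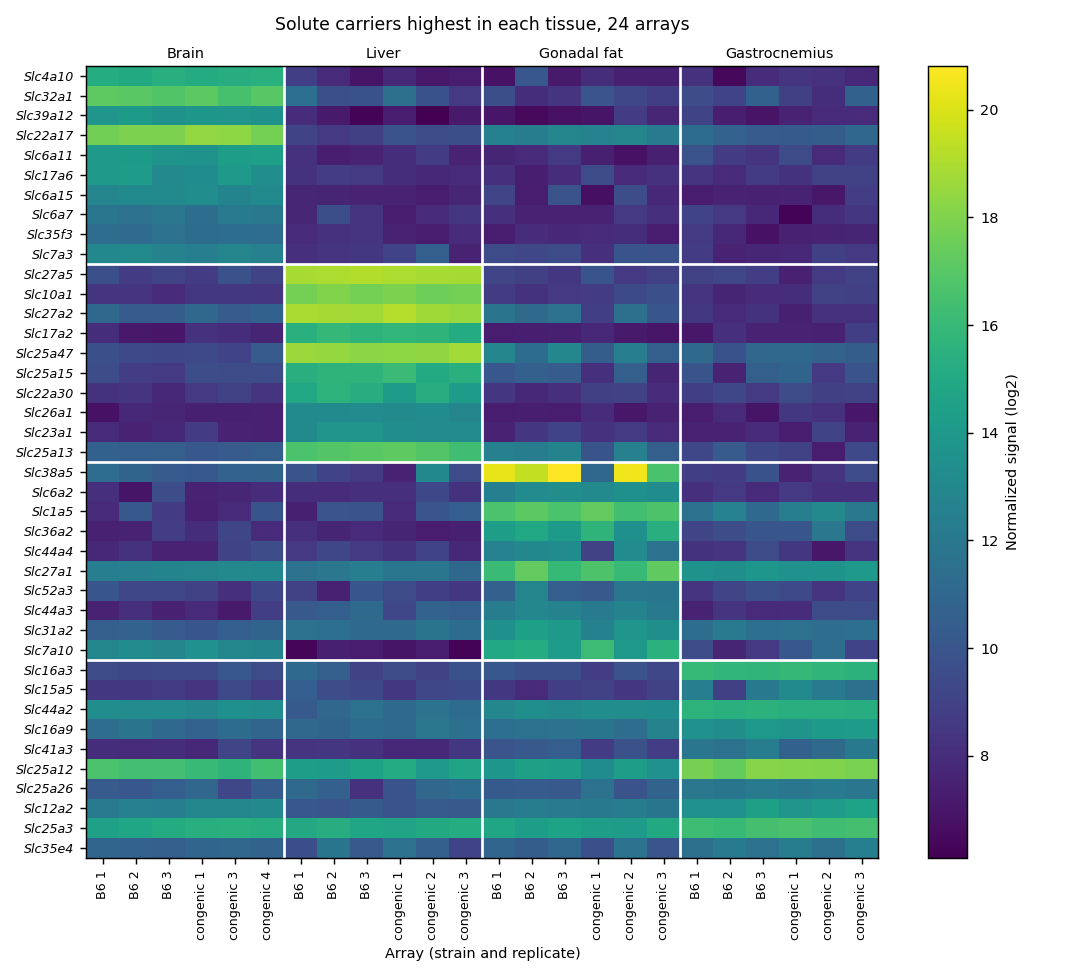
Normalized log2 signal of the 10 carriers with the largest gap to the next tissue, for brain, liver, gonadal fat and gastrocnemius from top to bottom, on 24 arrays grouped by tissue and strain (3 arrays per group). Most carriers of a block are bright on all 6 of its arrays. Exceptions are Slc38a5 and Slc44a4 on congenic fat replicate 1, at 11.11 and 8.92, and Slc15a5 on B6 muscle replicate 2, at 8.87.

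The liver block held transporters of bile acid and fatty acid metabolism at its top. Slc27a5, on chromosome 7, is the enzyme and fatty acid transport protein that also attaches coenzyme A to bile acids. Its normalized log2 signal in liver ran from 18.83 over a median of 18.95 to 19.15, and no array of brain, fat or muscle passed 9.92. As deposited, its intensity in B6 liver was 470296.2, 715354.0 and 718739.5, and in congenic liver 461444.2, 502809.0 and 543616.7, while the B6 muscle arrays read 436.3, 445.6 and 567.3. Liver exceeded the next tissue, brain, by 9.77 ± 0.27 log2 units (SE, 6 arrays per tissue; adjusted p = 1.77e-18), the largest gap among the carriers tested. Slc10a1, which takes conjugated bile acids up from the blood with sodium, was at 17.58 to 18.04 in liver and at most 9.70 elsewhere, a gap of 8.91 ± 0.23 log2 units over fat. Slc27a2, an acyl-CoA synthetase for very long chains, was at 18.54 to 19.16 in liver, 8.0 ± 0.30 log2 units above fat. The liver arrays did not overlap those of any other tissue for these 3 carriers.

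Carriers of the urea cycle and of organic anions followed. Slc25a15, the mitochondrial ornithine carrier, was 5.99 ± 0.48 log2 units higher in liver than in fat, with medians of 15.58 and 10.25. Slc25a13, known as citrin, exports aspartate from the mitochondrion and was 5.07 ± 0.35 log2 units above fat. For Slc27a2, Slc25a15 and Slc25a13, congenic replicates 1 and 3 were the lowest fat arrays. With only congenic replicate 1 kept for fat, their gaps to the next tissue were 8.34, 6.08 and 6.51 log2 units. Slc25a47, a mitochondrial carrier known for its expression in liver, had a gap of 6.75 ± 0.33. Slc17a2, of the phosphate and urate family, was detected on all 6 liver arrays and on 0 of the other 18, so its difference is a bound: at least 214-fold higher than in muscle, the next tissue. Such a bound concerns the unknown level of the dim tissue and does not allow for the spread between arrays. The same kind of bound was at least 59.9-fold for Slc22a30, of the organic anion transporter family, at least 42.1-fold for the sulfate transporter Slc26a1 and at least 34.9-fold for the vitamin C transporter Slc23a1.

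For the amino acid, metal and carnitine carriers of liver named here, muscle was the next tissue and the gaps were smaller. Slc38a4, a sodium-coupled neutral amino acid transporter, had medians of 18.47 in liver, 15 in muscle, 11.07 in fat and 9.52 in brain, a gap of 3.41 ± 0.49. Slc38a3, which moves glutamine, was higher by 3.43 ± 0.28 and Slc7a2, the cationic amino acid transporter, by 3.30 ± 0.40, both over muscle. The glucose 6-phosphate translocase Slc37a4 exceeded muscle by 1.77 ± 0.29, the zinc and iron importer Slc39a14 by 1.34 ± 0.25, the carnitine-acylcarnitine carrier Slc25a20 by 1.13 ± 0.23 and the iron exporter Slc40a1 by 1.07 ± 0.27. In the congenic strain alone Slc25a20 and Slc40a1 missed the rule. Slc1a2, known as the glutamate transporter of astrocytes, was also called for liver, where its 6 arrays ran from 13.01 to 13.67 against 11.35 to 11.82 in brain, 1.84 ± 0.39 log2 units apart (adjusted p = 2.16e-04). Its arrays in liver and brain did not overlap.

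Of 14 neurotransmitter carriers tested, 4 were called for brain, 3 for liver and 2 for fat. Among all probes tested these shares were 15.6%, 9.03% and 6.91%. Slc32a1 loads GABA and glycine into synaptic vesicles. Its brain signal ran from 16.51 over a median of 17.01 to 17.18, the highest array of any other tissue was at 11.55, and the gap to liver was 6.79 ± 0.47 (adjusted p = 7.29e-12). Slc17a6, on chromosome 7, loads glutamate into vesicles; it was at 13.04 to 14.19 in brain, and since muscle arrays did not detect it, brain was at least 34.9-fold higher. Slc6a11, a GABA transporter of astrocytes, was 5.22 ± 0.33 log2 units above muscle, and Slc6a7, the proline transporter of the brain, 3.61 ± 0.39 above liver. Slc12a5, the neuronal chloride exporter, was 2.60 ± 0.36 log2 units above muscle. These arrays separated brain from the rest with no overlap for Slc32a1, Slc17a6 and Slc6a11.

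Ion and metal carriers made up much of the remaining brain group, with 7 inorganic ion carriers among its 27. Slc4a10, a sodium-driven bicarbonate transporter, had the largest brain gap: 15.05 to 15.44 in brain, at most 10.12 elsewhere, 7.41 ± 0.45 log2 units above fat. The zinc importer Slc39a12 was 6.03 ± 0.38 above muscle, and its second probe was called for brain as well. Slc22a17, known as a receptor for lipocalin-2, was at 17.68 to 18.41 in brain and also detected on all 6 arrays of fat, where its median was 12.59. Slc6a15 and Slc7a3, carriers of neutral and of cationic amino acids, exceeded fat by 4.64 ± 0.44 and 3.38 ± 0.41. Slc35f3, of the nucleotide sugar transporter family by name, was detected in brain only and was at least 11.5-fold higher than in liver. Of the 27 carriers called for brain, 21 were detected on all 6 arrays of brain and of no other tissue, against 15 of the 45 called for liver, 7 of 21 for fat and 2 of 10 for muscle.

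Gonadal fat was led by amino acid transporters, but its members fell into groups that differed between arrays. Slc1a5, on chromosome 7, exchanges neutral amino acids such as glutamine and ran from 16.38 over a median of 16.69 to 17.30 in fat, against at most 13.05 in muscle, the next tissue (4.67 ± 0.51 log2 units, adjusted p = 5.55e-08). Slc36a2, a proton-coupled amino acid transporter, was at 13.48 to 15.70 in fat and 4.60 ± 0.41 above muscle. Slc27a1, the fatty acid transport protein of adipocytes and muscle, was at 15.97 to 17.29 in fat, 2.86 ± 0.23 above muscle. Slc7a10, on chromosome 7, carries small neutral amino acids and was 2.0 ± 0.40 above brain. Slc6a2, the noradrenaline transporter, was detected on all 6 fat arrays at 12.47 to 13.47 and on 0 liver arrays, a bound of at least 28.8-fold. On congenic replicate 1 alone, the fat array lowest for epididymis markers and highest for seminal vesicle markers, the gaps of these 5 to the next tissue were 5.29, 5.76, 3.08, 3.29 and 4.72 log2 units. Slc36a2 and Slc7a10 were also higher on congenic replicates 1 and 3 than on every other fat array. On the scale of the 6 fat arrays these were 15.55 and 15.22 against at most 14.88, and 16.01 and 15.39 against at most 15.15. Slc1a5, Slc27a1 and Slc6a2 did not separate the arrays in this way.

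Other fat carriers moved with the epididymis markers. Slc38a5, which carries glutamine and other neutral amino acids, had the largest fat gap, 7.43 ± 0.98 log2 units over brain. Its B6 fat arrays were at 20.27, 19.49 and 20.81, and congenic replicates 1, 2 and 3 were at 11.11, 20.50 and 16.61. Its deposited intensity accordingly spanned 1459.3 to 1886487.5 within fat, and its gap on congenic replicate 1 alone was 0.41. Slc44a4, a choline-like transporter, was at 12.61, 12.97 and 13.22 in B6 and at 8.92, 13.22 and 11.63 in the congenic strain, and its gap on that array was 0.33. Slc7a5, the large neutral amino acid transporter, was at 14.72, 13.52 and 15.06 in B6 and at 8.38, 15.38 and 11.37 in the congenic strain, and had no call over both strains (gap 1.08 ± 0.69, adjusted p = 0.181). For each of these 3, congenic replicates 1 and 3 were the lowest of the 6 fat arrays, as they were for the epididymis markers. The part of other tissue in these results was not tested. Slc52a3, a riboflavin transporter, Slc44a3, of the choline-like family, and the copper transporter Slc31a2 exceeded the next tissue by 2.18 ± 0.46, 2.08 ± 0.35 and 2.01 ± 0.23 over all fat arrays, and their gaps on congenic replicate 1 alone were 1.02, 1.82 and 0.99.

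Across the 177 carriers tested in fat, 50 (28.2%) had congenic replicates 1 and 3 below all 4 other arrays, against 16.5% of all probes tested there, and 36 (20.3%) had both above, against 18.1%. These 2 arrays were chosen for their marker values, so the shares are a description. With congenic replicate 1 as the single fat array, which is then assumed to vary like the other groups, 8 carriers were called highest in fat in place of 21, and 5 of the 21 were among them (Slc1a5, Slc36a2, Slc27a1, Slc7a10 and Slc6a2). How many of all probes were called for fat on that array alone, or without congenic replicates 1 and 3, was not counted. A count from 1 array can also be lower for want of replicates, so the calls lost do not separate carriers that follow the epididymis markers from those that do not. The carriers called on that array alone but not among the 21 were Slc12a4, Slc1a3 and Slc43a3, named here after their values were seen. Without congenic replicates 1 and 3 the count was 25, of which 19 were among the 21.

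**Figure D2:**
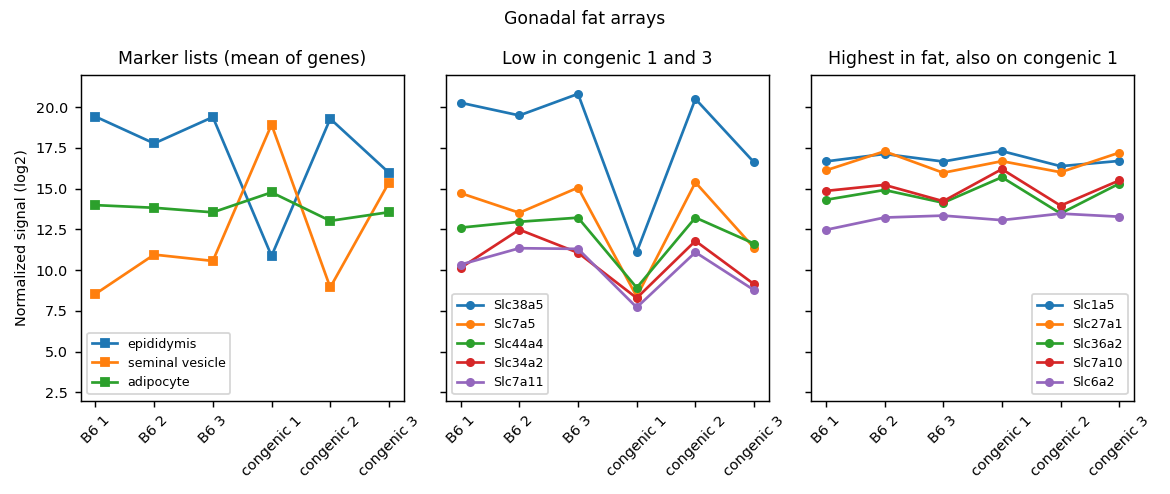
Normalized log2 signal on the 6 gonadal fat arrays (x axis: B6 and congenic replicates 1 to 3). The left panel shows means of marker lists, the middle panel carriers that were low on congenic replicates 1 and 3, and the right panel the 5 carriers called for fat also with congenic replicate 1 as the single fat array; Slc38a5 falls to 11.11 on that array while Slc1a5 is at 17.30.

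Muscle had the fewest calls and 1 very large gap. Slc16a3, the monocarboxylate transporter that exports lactate from glycolytic fibres, was at 15.56 to 15.96 on the 6 muscle arrays and at most 11.15 on the other 18, 5.92 ± 0.29 log2 units above liver (adjusted p = 1.89e-14). Its deposited intensity was 51513.8, 61458.5 and 62512.0 in B6 muscle and 46072.7, 48141.3 and 50710.1 in congenic muscle, against 1121.5, 1296.3 and 1346.3 in B6 brain. The remaining gaps were under 2.3 log2 units. The choline transporter Slc44a2 was 2.19 ± 0.18 above brain, Slc16a9, of the monocarboxylate family, 2.04 ± 0.21 above fat, and the magnesium transporter Slc41a3 1.95 ± 0.31 above fat. The sodium, potassium and chloride cotransporter Slc12a2 exceeded brain by 1.38 ± 0.19 and the mitochondrial phosphate carrier Slc25a3 by 1.29 ± 0.15. The peptide transporter family member Slc15a5 was detected on 5 of 6 muscle arrays and on none elsewhere. Its bound over both strains was 4.86-fold, which is not a minimum for each strain. The gap was 3.24 log2 units in the congenic strain but 1.32 in B6, where it was not called (adjusted p = 0.102). Slc25a26, the mitochondrial carrier of S-adenosylmethionine, was not called in the congenic strain alone (gap 1.20, adjusted p = 0.097), and Slc35e4, of the nucleotide sugar transporter family by name, had a gap of 1.13 ± 0.40 over brain and was called in neither strain alone.

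Relatives were divided between tissues in several families. The probes of different genes are not compared in level here; each gene is described by its own order of tissues. The aspartate-glutamate carriers are the clearest pair: Slc25a12 (aralar) was highest in muscle, with medians of 17.94 in muscle, 16.39 in brain, 14.46 in liver and 14.05 in fat, whereas Slc25a13 (citrin) had 16.89 in liver, 12.43 in fat, 10.54 in brain and 9.25 in muscle. For Slc25a12, muscle and brain arrays did not overlap (17.33 to 18.12 and 15.70 to 16.66), and liver and fat arrays did. Within fat, Slc25a13 was lowest on congenic replicates 1 and 3, the arrays low in epididymis markers. Among monocarboxylate transporters, Slc16a3 was highest in muscle while Slc16a1, which also imports lactate, was highest in liver by 1.11 ± 0.29 over fat (medians 13.12 and 11.87), a call lost within the congenic strain alone. Among fatty acid transport proteins, Slc27a1 was called for fat, and Slc27a2 and Slc27a5 for liver. Among the cationic and small neutral amino acid transporters, Slc7a2 was called for liver, Slc7a3 for brain and Slc7a10 for fat. In the Slc17 family Slc17a6 was called for brain, and the liver calls included Slc17a2, Slc17a3 and Slc17a8. Those of Slc17a3 and Slc17a8 were lost when detection on all 6 arrays of 1 tissue was required.

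**Figure D3:**
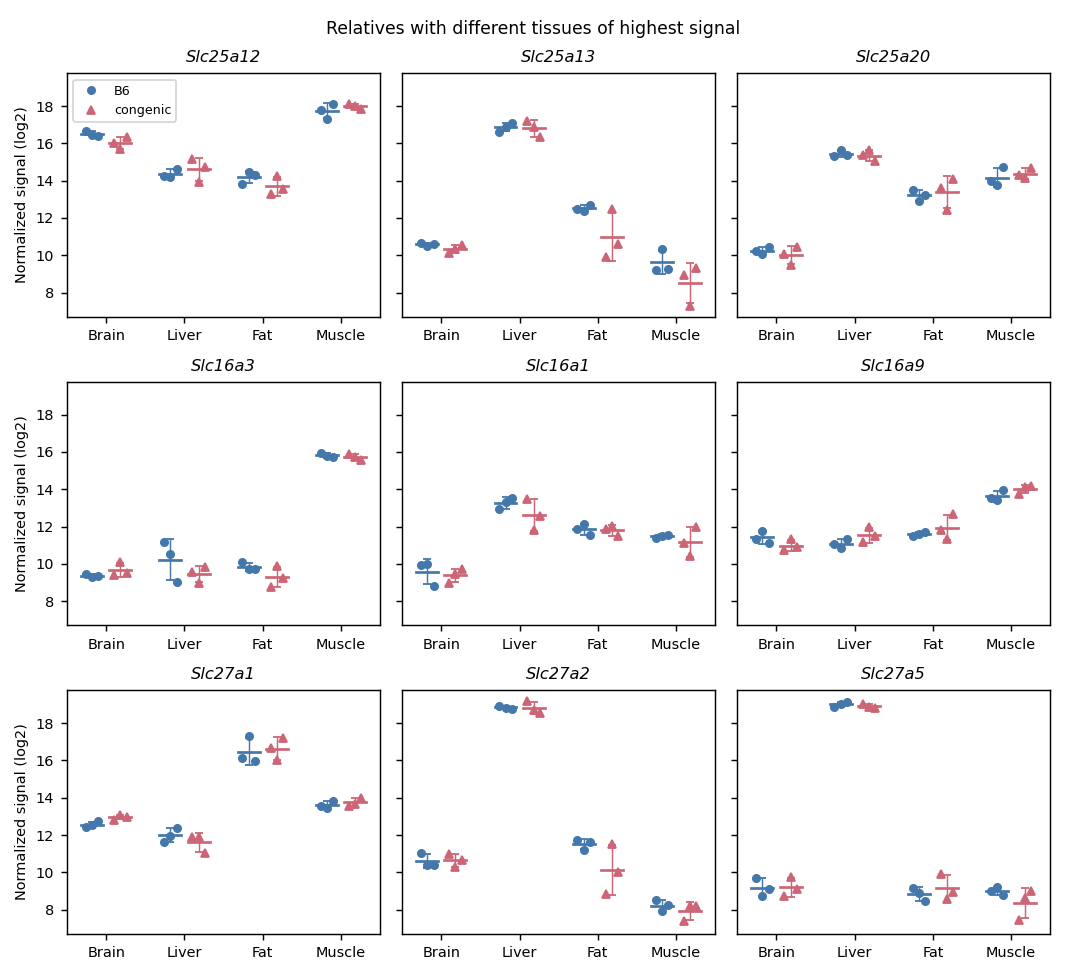
Normalized log2 signal (y axis) of 9 carriers of 3 families by tissue; points are arrays (3 per group), horizontal bars group means and whiskers the SD. Slc25a12 peaks in muscle and Slc25a13 in liver, Slc16a3 in muscle and Slc16a1 in liver, Slc27a1 in fat and both Slc27a2 and Slc27a5 in liver.

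By substrate, organic ion and bile acid carriers and mitochondrial carriers supplied the most liver calls. Among all probes tested, 9.03% were called for liver, 15.6% for brain, 6.91% for fat and 7.09% for muscle. The class counts were not tested against these shares. Of 18 organic ion and bile acid carriers tested, 8 were called for liver and 4 for brain. Of 31 mitochondrial carriers, 9 were called for liver, 3 for brain, 3 for muscle and 2 for fat. Amino acid and peptide carriers were spread more evenly, with 6 of 34 called for fat, 5 for liver, 4 for brain and 1 for muscle. Vitamin carriers, 10 in number and all tested, gave 4 calls for liver and 2 for fat. Of the metal ion carriers, 13 of 26 were detected on all 24 arrays, and 10 of the 24 tested had a tissue of highest signal. Nucleoside and sugar carriers, most of them in the Golgi or the endoplasmic reticulum, had such a tissue for 7 of 25. Over all probes tested the share with such a tissue was 38.6%, close to that of the metal ion carriers.

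**Figure D4:**
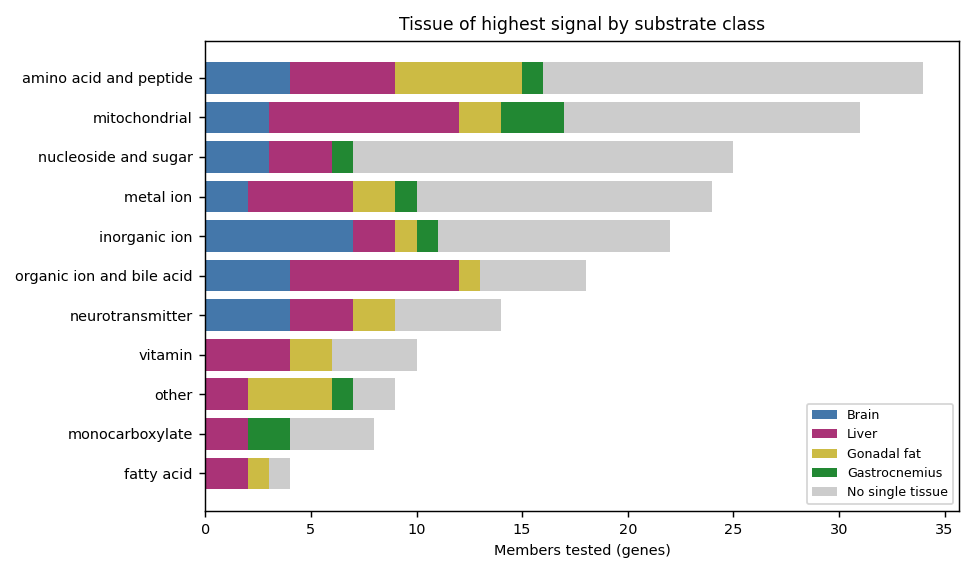
Number of tested carriers (x axis) in each substrate class, coloured by the tissue of highest signal. Liver takes 8 of 18 organic ion and bile acid carriers and 9 of 31 mitochondrial carriers, whereas 18 of 25 nucleoside and sugar carriers have no single tissue. Among all probes tested, 9.03% were called for liver.

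The carriers with the smallest range of tissue means, among those detected on all 24 arrays, were Slc30a9, Slc25a46, Slc25a44, Slc6a6 and Slc16a6. Slc30a9, of the zinc transporter family, had means of 12.15 ± 0.16 in brain, 12 ± 0.27 in liver, 11.83 ± 0.42 in fat and 12.14 ± 0.28 in muscle (SD, n = 6), a range of 0.32. The range was 0.52 for Slc25a46, a protein of the outer mitochondrial membrane, 0.77 for Slc25a44, of the mitochondrial carrier family, 0.81 for the taurine transporter Slc6a6 and 0.83 for Slc16a6, of the monocarboxylate family. Several carriers named for a role in metabolism also lacked a tissue of highest signal. The citrate carrier Slc25a1 was at 15.04 ± 0.23 in liver and 14.37 ± 0.56 in fat, the adenine nucleotide translocase Slc25a5 at 17.87 ± 0.17 in liver and 17.59 ± 0.34 in brain, and the creatine transporter Slc6a8 at 14.34 ± 0.71 in liver and 13.52 ± 1.12 in fat. Slc1a3, a glutamate transporter of glia, was at 13.88 ± 0.90 in fat and 13.34 ± 0.33 in brain, a difference of 0.54 ± 0.35 (adjusted p = 0.192). The heavy chain Slc3a2, which pairs with Slc7a5, was just past the rule for fat at 1.08 ± 0.24 over brain, and not in the congenic strain alone. The zinc transporter Slc30a3, known from synaptic vesicles, was detected on all 6 brain arrays but its brain and liver means differed by 0.36 ± 0.41. The citrate transporter Slc13a5 and the red cell anion exchanger Slc4a1 did not reach the detection needed for the test, with 0 of 6 and 3 of 6 liver arrays detected.

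The sequence at the carriers' start sites, which the choice of carriers did not use, was set beside their breadth of detection. Promoter windows from RefSeq on GRCm38.p6, 250 bases before to 50 after the start, matched 220 of the 280 carriers, and 168 of these had 1 window. CpG dinucleotides, the letters CG, which read the same on both strands, were counted in each. The median was 17 per window for the 168 carriers and 7 for the 22862 genes with 1 window. Among the 32 carriers detected on all 24 arrays the median was 24 and 0 windows had fewer than 10, against 8 of 22 carriers called for liver, 4 of 13 for brain, 4 of 13 for fat and 2 of 7 for muscle, and 57.1% of all genes. Other genes detected on all 24 arrays or called for a tissue were not counted separately. Whether these counts are particular to carriers was thus not tested. The 6 windows of carriers that led liver by at least 4 log2 units had a median of 7, and 4 of the 6 had fewer than 10. The windows below show 2 of these liver carriers and 2 widely detected carriers, 5′ to 3′ in the direction of transcription, with CG in capitals. They lie at chr13:23806743-23807042 on the plus strand (Slc17a2), chr2:126552774-126553073 on the plus strand (Slc27a2), chr5:67306705-67307004 on the plus strand (Slc30a9), chr2:91070266-91070565 on the minus strand (Slc39a13).
Slc17a2: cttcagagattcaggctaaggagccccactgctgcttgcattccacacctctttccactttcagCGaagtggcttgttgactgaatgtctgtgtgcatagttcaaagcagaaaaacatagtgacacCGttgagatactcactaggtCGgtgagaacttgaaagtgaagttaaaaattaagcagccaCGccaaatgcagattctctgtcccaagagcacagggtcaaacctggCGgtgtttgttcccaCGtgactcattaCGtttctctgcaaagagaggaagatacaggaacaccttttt
Slc27a2: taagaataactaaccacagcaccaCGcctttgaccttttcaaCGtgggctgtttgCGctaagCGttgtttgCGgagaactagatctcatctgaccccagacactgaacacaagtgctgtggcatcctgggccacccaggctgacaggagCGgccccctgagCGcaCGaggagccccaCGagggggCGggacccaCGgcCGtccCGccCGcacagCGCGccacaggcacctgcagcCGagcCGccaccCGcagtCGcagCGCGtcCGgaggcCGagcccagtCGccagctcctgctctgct
Slc30a9: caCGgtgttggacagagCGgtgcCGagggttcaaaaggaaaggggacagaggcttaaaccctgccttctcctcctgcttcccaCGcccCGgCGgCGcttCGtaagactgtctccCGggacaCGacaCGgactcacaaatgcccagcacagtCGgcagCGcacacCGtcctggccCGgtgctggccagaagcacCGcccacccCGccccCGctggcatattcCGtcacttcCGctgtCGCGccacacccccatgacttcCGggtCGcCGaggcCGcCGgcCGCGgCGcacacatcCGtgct
Slc39a13: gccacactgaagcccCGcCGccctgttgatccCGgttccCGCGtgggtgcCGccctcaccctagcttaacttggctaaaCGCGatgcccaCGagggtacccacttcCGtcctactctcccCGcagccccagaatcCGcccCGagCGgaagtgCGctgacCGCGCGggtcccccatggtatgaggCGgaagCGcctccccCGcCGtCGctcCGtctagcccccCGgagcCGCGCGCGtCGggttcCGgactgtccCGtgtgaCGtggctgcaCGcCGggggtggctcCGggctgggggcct
The liver carriers were not alike, with 25 CpG dinucleotides in the window of Slc27a2 and 7 in that of Slc17a2. The widely detected carriers had 31 for Slc30a9 and 36 for the zinc transporter Slc39a13. The counts describe the letters of these windows; methylation and factor binding were not measured.

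The second question of the design was whether carriers differed between the congenic strain and B6 within a tissue. On the scale of the 6 arrays of a tissue, 167 carriers were tested in brain, 147 in liver, 177 in fat and 117 in muscle. In limma's test adjusted over all probes of the tissue, 0 carriers passed an adjusted p of 0.05 in each of the 4, as did 0% of all probes. The smallest adjusted p of a carrier was 0.480 in brain, 1.00 in liver, 0.909 in fat and 0.996 in muscle. At an unadjusted p under 0.05 there were 14 carriers in brain (8.38%, against 9.65% of all probes), 7 in liver (4.76%, against 3.27%), 8 in fat (4.52%, against 3.46%) and 6 in muscle (5.13%, against 2.81%). Carriers with a lower congenic mean numbered 85 of 167, 86 of 147, 102 of 177 and 55 of 117, while 54.6%, 51%, 48.9% and 49.2% of all probes were lower. The median difference, congenic minus B6, was -0.02, -0.06, -0.11 and 0.03 log2 units, against -0.03, -0.01, 0.01 and 0.01 over all probes.

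In fat the smallest unadjusted p belonged to Slc16a11, a monocarboxylate transporter. Its normalized log2 signal was 10.97, 10.58 and 10.82 in B6 and 9.03, 9.11 and 7.33 in the congenic strain, where it was detected on 0 of 3 arrays. As deposited, the intensities were 2156.3, 2234.7 and 2348.6 in B6 and 142.5, 301.6 and 440.5 in the congenic strain. The groups did not overlap, and the congenic mean was 4.93-fold lower, with an adjusted p of 0.909. Groups did not overlap for 9 of the 177 carriers (5.08%, against 8.1% of all probes). Slc16a11 was lowest on congenic replicates 1 and 3, at 9.03 and 7.33, with replicate 2 at 9.11. All 3 values are from arrays that did not detect it, and the part of other tissue was not tested. Slc7a9, on chromosome 7, the light chain of the cystine transporter, was at 10.03, 10.17 and 10.72 in B6 fat and at 7.51, 9.82 and 7.72 in congenic fat (-1.96 ± 0.67, unadjusted p = 0.0207). It too was lowest on congenic replicates 1 and 3, the arrays low in epididymis markers.

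Slc37a4, Slc25a13 and Slc25a21 were also lowest on congenic replicates 1 and 3. Slc37a4 was at 13.51, 13.51 and 13.84 in B6 and at 11.34, 13.58 and 11.84 in the congenic strain. Slc25a13 was at 12.64, 12.53 and 12.85 in B6 and at 10.16, 12.64 and 10.85 in the congenic strain. Slc25a21, a mitochondrial oxodicarboxylate carrier, was at 10.82, 10.49 and 11.24 in B6 and at 6.35, 10.89 and 7.42 in the congenic strain. In each, congenic replicate 2 lay within the range of the 3 B6 arrays. Left out, replicate 2 gave 5 carriers an adjusted p under 0.05, all lower in the congenic strain: Slc25a13, Slc25a15, Slc25a21, Slc37a4 and Slc41a2. On the 2 arrays that then stood for the congenic strain the epididymis markers were at 10.9 and 16, and their part in the result was not tested. How many of all probes passed with replicate 2 left out was not counted. The iron exporter Slc40a1 was at 11.79, 11.43 and 11.20 in B6 and at 12.68, 11.65 and 13 in the congenic strain (0.97 ± 0.40, adjusted p = 0.909), above the B6 arrays on the same replicates 1 and 3 only.

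In liver, Slc13a2, a dicarboxylate transporter, was at 7.94, 8.06 and 7.80 in B6, detected on 0 of 3 arrays, and at 9.32, 9.19 and 9.68 in the congenic strain, detected on all 3. By the bound used here this is 2.75-fold higher, with an adjusted p of 1.00. Slc37a4 was at 14.90, 15.03 and 14.97 in B6 liver and at 15.70, 15.31 and 15.61 in congenic liver (0.57 ± 0.21, adjusted p = 1.00). Its difference thus had opposite signs in liver and fat, and neither passed the test. Slc20a1, a phosphate transporter, was higher by 0.95 ± 0.32 in congenic liver and Slc17a3, of the urate and phosphate family, lower by 1.19 log2 units (SE 0.44). The zinc importer Slc39a4 was at 11.45, 11.59 and 11.32 in B6 and at 11.90, 12.97 and 11.74 in the congenic strain, its highest array being congenic replicate 2, which was also the highest for the pancreas markers. Slc38a5 was detected in liver on that array only, at 12.98 on the 24-array scale against 7.57 and 9.49 on the other congenic livers. The bile duct markers were raised on that array and on congenic replicate 3 as well. The part of RNA from either source in these values was not tested.

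In brain the differences were small and the arrays tight. Slc30a6, a zinc transporter of the Golgi, was at 12.61, 12.77 and 12.75 in B6 and at 13.15, 13.40 and 13.27 in the congenic strain, 0.57 ± 0.17 log2 units higher without overlap (unadjusted p = 0.00628, adjusted p = 0.480). Slc25a3 was higher by 0.48 ± 0.15 and Slc12a2 by 0.48 ± 0.16 in the congenic strain. Slc25a12 was at 17.18, 16.98 and 16.97 in B6 and at 16.64, 16.33 and 16.92 in the congenic strain (-0.41 ± 0.16). Groups did not overlap for 23 of 167 carriers (13.8%, against 15.4% of all probes), so such separations were about as frequent among all probes. The granulocyte markers were higher on the B6 brain arrays, and their part in these differences was not tested.

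In muscle, Slc25a24, a mitochondrial ATP-magnesium and phosphate carrier, was at 9.92, 11.22 and 12.25 in B6 and at 9.27, 7.68 and 9.47 in the congenic strain (-2.32 ± 0.69, adjusted p = 0.996). Slc5a6, the vitamin transporter for biotin and pantothenate, and Slc27a4, a fatty acid transport protein, were detected on all 3 B6 arrays and on 0 of 3 congenic arrays. Their congenic means were 2.63-fold and 2.56-fold lower (adjusted p = 0.996 for each). Slc7a9 was lower in congenic muscle as in congenic fat, at 10.36, 10.62 and 9.61 in B6 and at 8.19, 8.0 and 9.81 in the congenic strain (-1.53 ± 0.60, unadjusted p = 0.0317), and here the groups overlapped. Only 2 of 3 B6 and 1 of 3 congenic muscle arrays detected Slc7a9. For Slc25a24 these were 3 of 3 and 1 of 3, so both differences involve values near background. The adipocyte markers averaged 11 on congenic muscle replicate 2 and 8.1 to 9.4 on the other muscle arrays. On that array Slc7a10, highest in fat, was at 10.93, against 7.60 to 9.69 on the other 5. Its mean was 1.40 ± 0.69 log2 units higher in congenic muscle (adjusted p = 0.996).

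**Figure D5:**
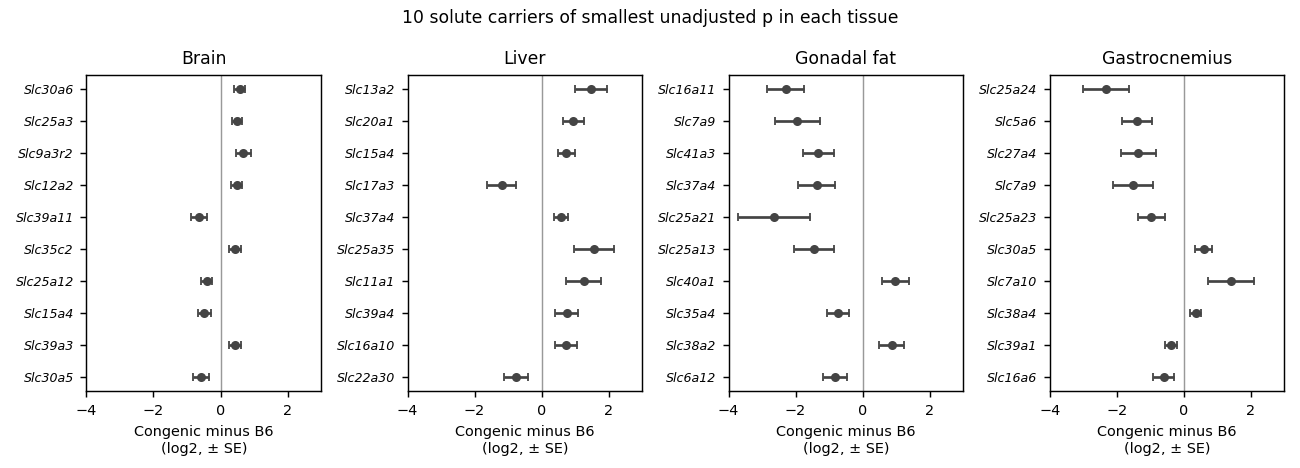
Difference of the congenic mean from the B6 mean in log2 units (x axis, points, with SE as bars; 3 arrays per strain) for the 10 carriers of smallest unadjusted p in each tissue. No carrier passed an adjusted p of 0.05. The points of brain lie close to 0, from -0.65 for Slc39a11 to 0.68 for Slc9a3r2, and those of fat and muscle reach -2.63 for Slc25a21 and -2.32 for Slc25a24.

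Chromosome 7, which the congenic marker names, carries 11 of the 280 carriers. Of these, 5 were tested in brain, 3 in liver, 6 in fat and 4 in muscle. Slc7a9 was the only 1 of them with an unadjusted p under 0.05, in fat and in muscle. In muscle it was detected on 2 of 3 B6 and 1 of 3 congenic arrays. In fat it was at 7.51 and 7.72 on congenic replicates 1 and 3, where the epididymis markers were at 10.9 and 16, and at 9.82 on replicate 2, where they were at 19.3. Positions within the chromosome were not set against the congenic interval, which is not given in the sources used here.

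Averaged over the 4 tissues on the 24-array scale, 0 of 203 carriers differed between strains at an adjusted p of 0.05, with 13 at an unadjusted p under 0.05 (6.4%, against 6.35% of all probes). The smallest p-values belonged to the anion exchanger Slc4a3 (0.87 ± 0.30 higher in the congenic strain), the amino acid transporter Slc38a2 (0.41 ± 0.14 higher), Slc25a13 (-0.73 ± 0.25), Slc27a4 (-0.58 ± 0.20) and Slc10a1 (0.40 ± 0.16 higher), with an adjusted p of 0.771 for each. For Slc10a1 the gap of liver to the next tissue was 9.32 log2 units in B6 and 8.51 in the congenic strain. Its average thus includes tissues where its signal was far below that of liver. The test of whether the strain difference varied between tissues also called 0 carriers, against 0.00514% of all probes, with 13 at an unadjusted p under 0.05 (6.4%, against 5.71% of all probes). Its smallest p-values were those of Slc25a35, a mitochondrial carrier (adjusted p = 0.690), Slc7a9 (0.697), Slc16a11 (0.759), Slc13a2 (0.781) and Slc37a4 (0.797). For Slc7a9 the differences on this scale were 1.15, 0.35, -1.71 and -1.79 log2 units in brain, liver, fat and muscle.

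Proteins that work with carriers were taken as a separate list of 20, of which 11 were measured. These include subunits of the sodium pump, which sets the gradient many carriers use, and chaperones of the monocarboxylate transporters. Atp1b1, a pump subunit, and Fxyd7, a pump regulator, were called highest in brain, and Fxyd3 in fat. Fxyd3 was at 11.72, 10.84 and 12.05 in B6 fat and at 8.02, 12.48 and 10.21 in congenic fat, lowest on replicates 1 and 3 as the epididymis markers were. The mean for Atp1b1 was 19 in brain against 15.35 in liver, 15.20 in fat and 15.66 in muscle. Bsg, the chaperone of Slc16a1 and Slc16a3, had no tissue of highest signal, at 17.32 in muscle, 16.98 in brain, 16.01 in liver and 15.93 in fat. Not all 11 were tested between strains in every tissue, and none of those tested passed an adjusted p of 0.05 in limma's test. At an unadjusted p under 0.05 there were 2 in brain, 2 in liver, 0 in fat and 1 in muscle. The shares of all probes at that threshold were 9.65%, 3.27%, 3.46% and 2.81%.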

How the data were processed

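Each array table deposited by the authors gives every probe a Signal, which per the file headers is an intensity, not on a log scale. It also gives a deposited signal to noise ratio, used here as a detection score, and a flag that was not used. The deposited series matrix holds log2 values, which differ from the logged Signal by 1 constant on each array and are blank where the ratio is under 3; it entered an alternative. The array software's background step is not given in these sources. Groups hold 3 labelled biological replicates, and this small number limits precision.

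Probes were named through the platform's gene table; of 32996 probes, 14401 had 1 gene, 247 several and 18348 none there. All 287 carrier probes matched the RefSeq gene table, with 0 symbols changed, and 1 probe with several genes was left out. Signals were background corrected (normexp, offset 50), log2 transformed and quantile normalized, within a tissue for strains and over 24 arrays for tissues, then tested with limma 3.58.1 in R 4.3.3 (lmFit, eBayes with an intensity trend). Strain tests kept a probe when 3 or more of the 6 arrays detected it (ratio of at least 3); the 24-array fit used those reaching it on all 3 arrays of at least 1 group. A difference against a group that did not detect a probe is given as a bound, in which each array of the dim group counts at its own signal or, where that is larger, at the lowest signal of any detected probe. Where the own signals are the larger, the bound is the plain fold of the means, as for Slc5a6 and Slc27a4 in muscle. A bound does not allow for the spread between arrays.

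Genes with 2 probes (7) are represented by the brighter; both probes gave the same call for 5, and Slc25a36 (the other probe was called for fat) and Slc29a4 (called for brain by the brighter probe only) differed. Genes named in the text are, by rule, the 10 with the largest gap per tissue, the 10 of smallest strain p, the 5 of smallest averaged and interaction p, the 5 of smallest range, a list by name, and carriers of chromosome 7 with an unadjusted p under 0.05; others were chosen after their values were seen. The members and lists were chosen with earlier results of these data known. The series text lists 1 B6 fat array with the livers; it was kept with fat because its own labels say so. The scripts' tests were tested on simulated data.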

Additional observations from a re-analysis of the deposited data

How the results depend on the processing

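Calls were recomputed with other scalings, background corrections, filters, the authors' matrix values and with arrays left out; of the counts, 234 stayed within 1.5 times and 7 did not. Requiring 2 log2 units in place of 1 left 28 carriers for liver, 10 for fat and 4 for muscle. Without congenic fat replicate 2 there were 5 strain calls in fat, 4 in the averaged strain effect and 9 in the interaction, in place of 0 each. The share of all probes called in that setting was not counted. With congenic fat replicate 1 as the single fat array, an alternative chosen after seeing the data, 8 carriers were called for fat. The share of all probes called there was not counted, and the cause was not tested. The value of Slc25a21 congenic minus B6 in fat turned to 0.0009434 with the authors' matrix values, which are blank where a probe was not detected. Leaving out each array in turn gave 0 to 0 strain calls in brain, liver and muscle, 0 to 5 in fat, 0 to 4 averaged and 0 to 9 in the interaction, and 26 to 29, 43 to 48, 17 to 23 and 10 to 10 calls of highest signal in brain, liver, fat and muscle. Scaling to the 75th percentile moved the median difference of all probes between a tissue and the others by -0.22 in brain, 0.21 in liver, -0.16 in fat and 0.21 in muscle (log2 units) and gave 24, 51, 16 and 11 calls, of which 24, 44, 16 and 10 were among the main ones; Slc3a2 was no longer called for fat. With the title number as a random replicate block (consensus correlation -0.0855), the counts were 27, 45, 20 and 10, and the strain calls stayed at 0. The planned filter on all arrays of at least 1 of the 8 groups names the same probes as the one used. Probes near background limit what can be seen. The bounds given there can equal the plain fold and do not allow for the spread between arrays.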
